A study of Mus musculus with 168 samples.

Results

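MicroRNAs of the cortex were compared between 8 HET (Q175) mice and 8 HET (Q80) mice at 6 months of age, chosen by the genotype and age in the sample titles, out of 168 libraries in the whole series. All 16 mice were C57BL/6, each group held 4 females and 4 males, and every mouse carried 1 unmodified Htt allele beside 1 knock-in allele with a human HTT exon 1. The label 80 or 175 is the nominal CAG repeat length of that knock-in allele, so Q80 is here a shorter expansion and not a wild-type control. The labels give each mouse as housed with heterozygotes of its own line, whereas the study's methods describe cages shared with wild-type mice. Cortex was taken whole and frozen, total RNA was extracted and small RNA was sequenced, so the values are those of bulk tissue, in which fewer cells of a type and less RNA per cell cannot be told apart. The knock-in allele is expressed from the endogenous Htt locus in all cells, and microRNA counts hold no reading of Htt itself, so the genotype labels could not be checked with these data. The comparison asks which microRNAs differ between a long and a shorter expansion at an age between the 2-month and 10-month groups of the same study.

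MicroRNAs are short RNAs cut from hairpin precursors that pair with messenger RNAs through the seed, bases 2 to 8 of the mature strand, and lower the output of their targets. MicroRNA genes that share a seed are expected to act on overlapping sets of targets, and hairpins that lie close together are often cut from 1 primary transcript. In Huntington's disease the expanded CAG repeat of HTT lengthens a polyglutamine tract, with striatal and cortical neurons among the cells most affected.

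Counts were given per hairpin transcript, so the 2 arms of a hairpin were not separated. Of the 9 microRNAs that passed the test at 6 months, 8 had a mature sequence in RefSeq (GRCm38.p6). These are shown with 3 seed partners (miR-221-3p, miR-99b-5p and miR-15a-5p), grouped by seed and with the seed in capitals, because the seed groups recur in the results; the ninth is Mir187. The sequences are written 5′ to 3′.
mmu-miR-132-3p: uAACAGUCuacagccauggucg
mmu-miR-212-3p: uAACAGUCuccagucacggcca
mmu-miR-222-3p: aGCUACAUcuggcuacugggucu
mmu-miR-221-3p: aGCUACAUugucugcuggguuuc
mmu-miR-100-5p: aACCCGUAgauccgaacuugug
mmu-miR-99a-5p: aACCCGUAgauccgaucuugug
mmu-miR-99b-5p: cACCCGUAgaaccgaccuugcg
mmu-miR-195a-5p: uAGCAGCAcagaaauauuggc
mmu-miR-15a-5p: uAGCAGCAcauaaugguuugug
mmu-miR-181a-5p: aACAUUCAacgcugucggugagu
mmu-miR-344d-3p: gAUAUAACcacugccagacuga
Counted from 1 at the 5′ end, miR-100-5p and miR-99a-5p differ at a single base, A16U, while miR-132-3p and miR-212-3p match at 17 of 22 positions and miR-221-3p and miR-222-3p at 11 of 23. Mature miR-181a-5p is the same from the hairpins Mir181a-1 and Mir181a-2, and miR-344d-3p is the same from Mir344d-1, Mir344d-2 and Mir344d-3, so reads of those strands can be divided between loci.

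Totals ran from 3991914 to 11646287 estimated counts per library with a median of 4586997, and the highest belonged to Q175 male M3; the mice are named here by sex and number. Of the Q175 libraries 4 were on lane 1, 1 on lane 2 and 3 carried a V code with no lane. For the Q80 libraries these were 1, 5 and 2. The libraries with a lane carried an LB code. Lane and genotype were thus largely aligned, although both lanes were used by both groups. The number after LB ran from 14 to 20 in Q80 and from 26 to 32 in Q175 libraries, so it did not overlap between genotypes. The labels do not say what that number stands for, and its part in the differences was not tested. The first principal component over 260 microRNAs held 76.8% of the variance, and its 8 leading microRNAs were Mir141, Mir200a, Mir200b, Mir200c, Mir429, Mir182, Mir183 and Mir96, known from epithelia and sensory organs. Their summed level ran from 480 to 35236 counts scaled to library size (CPM) in Q175 mice with a median of 7168, and from 615 to 20728 in Q80 mice with a median of 4243. The groups overlapped almost entirely, and none of the 8 passed the test at 6 months.

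**Figure D1:**
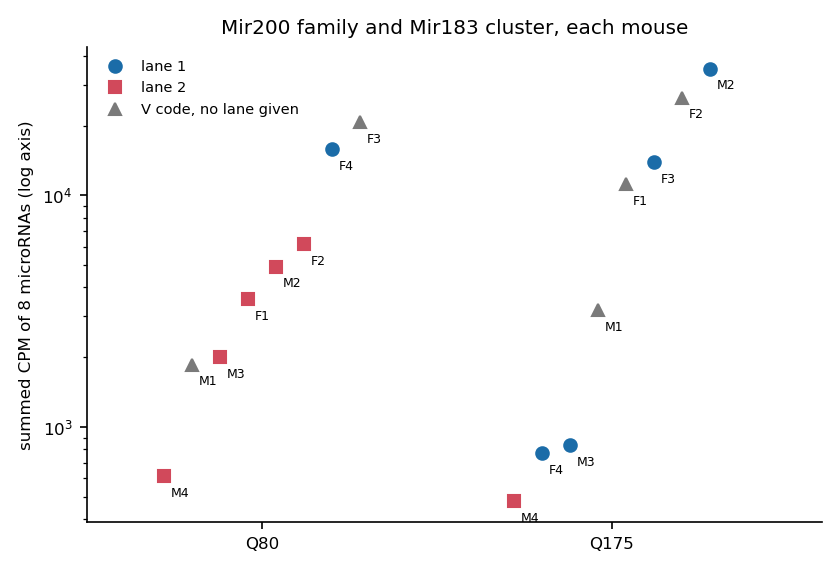
Summed level of Mir141, Mir200a, Mir200b, Mir200c, Mir429, Mir182, Mir183 and Mir96 in each 6-month library, in TMM-normalized CPM on a log axis, with Q80 and Q175 on the x axis, symbols for lane 1, lane 2 and V libraries, and the mouse beside each point. Both groups spread over a wide range, from 480 to 35236 CPM in Q175 and from 615 to 20728 CPM in Q80.

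Of 325 microRNAs tested, 9 passed an FDR of 0.05 in Q175 against Q80 (2.77%; edgeR's quasi-likelihood test with Benjamini-Hochberg adjustment). Mir187, Mir132, Mir344d-1, Mir222 and Mir212 fell (1.54% of those tested) and Mir181a-1, Mir100, Mir195a and Mir99a rose (1.23%). Both members of the activity-regulated Mir132 and Mir212 pair and 2 of the 3 tested members of the Mir99 and Mir100 seed group were among them. On the log2 scale Mir99a, at 0.15, had the smallest change of the 9 in size and Mir187, at -0.42, the largest. The median log2 fold change over all 325 was 0.0034, and 49 had an unadjusted p under 0.05. All values below are TMM-normalized CPM and log2 fold changes with their standard error (SE), n = 8 mice per group.

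Mir187, an intergenic hairpin at chr18:24429110-24429170 on the minus strand (GRCm38), had the smallest p. Its level was 87.2 CPM in the lowest Q175 mouse, 96.2 at the median and 109 in the highest, and 119, 126 and 152 in Q80 mice. Every Q175 mouse was below every Q80 mouse, which held for no other of the 325 microRNAs (0.308%). The level fell by 25.5%, a log2 fold change of -0.42 ± 0.07 (SE, adjusted p = 0.00148, edgeR).

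Mir132 and Mir212 are transcribed together in response to neuronal activity through the factor CREB and act on dendrite growth and synapses. Their hairpins lie 204 bases apart at chr11:75173682-75173747 and chr11:75173388-75173478 on the plus strand, in an intron of the noncoding gene 1700016P03Rik. Mir132 ran from 5211 CPM through a median of 5704 to 6619.5 in Q175 mice, and from 6151 through 6817 to 8572 in Q80 mice. All 8 Q175 mice were below the Q80 median and 7 below the lowest Q80 mouse, and female F2 was the exception. The log2 fold change was -0.29 ± 0.07 (SE, adjusted p = 0.0278, edgeR). For Mir212 the Q175 mice ran from 1076 through 1248 to 1306 CPM and the Q80 mice from 1274 through 1405 to 1514. The groups overlapped at 3 Q175 mice, and the log2 fold change was -0.19 ± 0.05 (SE, adjusted p = 0.0450, edgeR).

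Mir222 and Mir221, a pair known for lowering the cell-cycle inhibitor p27, share a seed and lie 505 bases apart on the minus strand of chromosome X, Mir222 at chrX:19146893-19146971 outside any other annotated gene. Mir222 ran from 2037 through 2063 to 2256 CPM in Q175 mice and from 2207 through 2334 to 2501 in Q80 mice. Of the 8 Q175 mice 7 were below the lowest Q80 mouse, with a log2 fold change of -0.15 ± 0.04 (SE, adjusted p = 0.0450, edgeR). Its partner Mir221 did not pass, at -0.13 ± 0.05 (SE, adjusted p = 0.165, edgeR). For Mir221, 6 Q175 mice were below the lowest Q80 mouse and 1, at 2417 CPM, was above the highest.

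Mir344d-1 belongs to a group of related hairpins on chromosome 7 and lies at chr7:61683124-61683192 on the minus strand, outside other genes. Its counts were not whole numbers in any of the 16 libraries, as arises when reads that fit several loci are divided, and its level is uncertain to that extent. Q175 mice ran from 199 through 242 to 303 CPM and Q80 mice from 272 through 317 to 352. All Q175 mice were below the Q80 median and 6 below the lowest Q80 mouse, with a log2 fold change of -0.33 ± 0.09 (SE, adjusted p = 0.0450, edgeR). The related Mir344b, with an adjusted p of 0.115 (edgeR), had -0.19 ± 0.06.

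Mir100 and Mir99a, whose family is known for targeting the growth kinase mTOR, head 2 clusters of like order, each with a let-7 and a Mir125b hairpin. Mir100 lies at chr9:41531425-41531504 in introns of the noncoding genes 3110039I08Rik and Gm49317 on the plus strand, with an exon of Gm48742 on the other strand, and Mir99a at chr16:77598936-77599000 in an intron of Mir99ahg, with an intron of Gm11146 on the other strand. Mir100 ran from 2083 through 2398 to 2744 CPM in Q175 mice and from 1774 through 1990.3 to 2301 in Q80 mice. All Q175 mice were above the Q80 median and 7 above the highest Q80 mouse, with a log2 fold change of 0.25 ± 0.05 (SE, adjusted p = 0.00537, edgeR). Mir99a ran from 1040.3 through 1124 to 1182 CPM in Q175 mice and from 939.7 through 1003 to 1078 in Q80 mice, and 6 Q175 mice were above the highest Q80 mouse. Its log2 fold change was 0.15 ± 0.03 (SE, adjusted p = 0.0278, edgeR). Counts of Mir100 were not whole in 14 of 16 libraries and those of Mir99a in 13, so divided reads entered both.

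Their neighbours had log2 fold changes of the same sign without passing the test. On chromosome 9 these were 0.18 ± 0.16 for Mirlet7a-2, 5.21 kb downstream of Mir100, and 0.18 ± 0.07 for Mir125b-1, 50.42 kb downstream. On chromosome 16 they were 0.16 ± 0.07 for Mirlet7c-1, 0.66 kb downstream of Mir99a, and 0.18 ± 0.07 for Mir125b-2, 47.27 kb downstream. The third seed member, Mir99b, from another cluster, was at 0.18 ± 0.06 (SE, adjusted p = 0.141, edgeR), and Mir125a at 0.12 ± 0.06. All 6 tested members of the Mir99, Mir100 and Mir125 families were positive, against 167 of all 325 microRNAs. Past the test were 2 of the 6, against 4 called higher among all 325 (1.23%). The median was 0.18 against 0.0034 over all microRNAs. Divided reads entered Mir100, Mir99a, Mir125b-1 and Mir125b-2, so the 6 are not independent readings. The summed level of the 6 ran from 29860.4 to 41181 CPM in Q175 mice and from 28311 to 34893 in Q80 mice, so the groups overlapped. Counts of Mir125b-1 and Mir125b-2 were not whole in any of the 16 libraries. Their log2 fold changes were 0.12 each without Q175 male M3, and 0.0073 and 0.0082 in the 5 V libraries alone.

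Mir195a belongs to the Mir15 and Mir16 family, known for lowering Bcl2 and cyclins, and lies outside other genes at chr11:70235042-70235135 on the plus strand. It ran from 436 through 476 to 509.8 CPM in Q175 mice and from 359 through 409.9 to 471 in Q80 mice. All Q175 mice were above the Q80 median and 5 above the highest Q80 mouse, with a log2 fold change of 0.21 ± 0.05 (SE, adjusted p = 0.0163, edgeR). The other 4 tested members with its seed did not pass. Mir16-2, at 0.21 ± 0.10, was nearest to it in size, Mir15a was at 0.09 ± 0.04, Mir15b at 0.08 ± 0.08 and Mir16-1 at 0.07 ± 0.07.

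Mir181a-1, of a family that is known for tuning T cell receptor signalling and is also abundant in brain, lies at chr1:137966455-137966541 on the plus strand in an exon of the lincRNA A430106G13Rik, within introns of Gm4258 and, on the other strand, Gm26936. Q175 mice ran from 4845 through 5556 to 6002 CPM and Q80 mice from 4396 through 4674 to 4856. All Q175 mice but male M4 were above the highest Q80 mouse, and the log2 fold change was 0.25 ± 0.04 (SE, adjusted p = 0.00268, edgeR). Its counts were not whole in any of the 16 libraries. Mir181a-2, which gives the same mature miR-181a-5p and held a mean of 603070 counts per library against 26320.2 for Mir181a-1, was at 0.08 ± 0.06 (SE, adjusted p = 0.629, edgeR). Mir181b-1, 98 bases from Mir181a-1 on the same strand, was at 0.02 ± 0.05. Whether Mir181a-1 rose or took a larger share of reads that fit both loci cannot be told apart with counts of this kind.

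**Figure D2:**
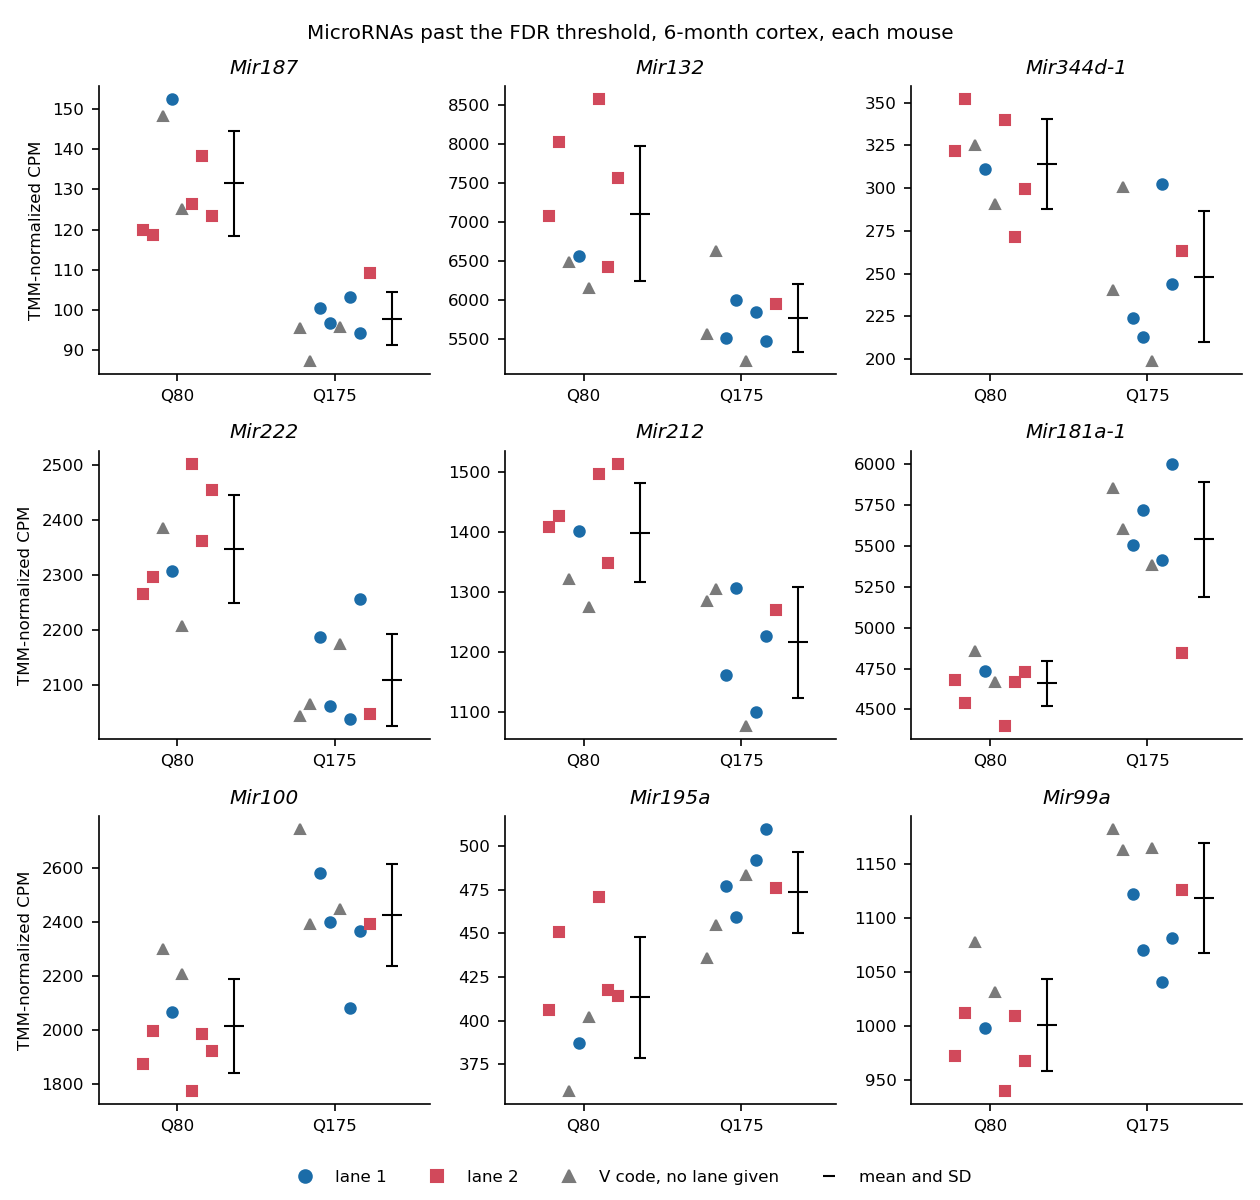
Level of the 9 microRNAs past an FDR of 0.05 in each of 8 Q80 and 8 Q175 mice at 6 months, in TMM-normalized CPM (y axes do not start at 0), with symbols for lane 1, lane 2 and V libraries and the mean and SD beside each group. Only for Mir187 do the groups not overlap, with all Q175 mice at or below 109 CPM and all Q80 mice at or above 119 CPM.

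**Figure D3:**
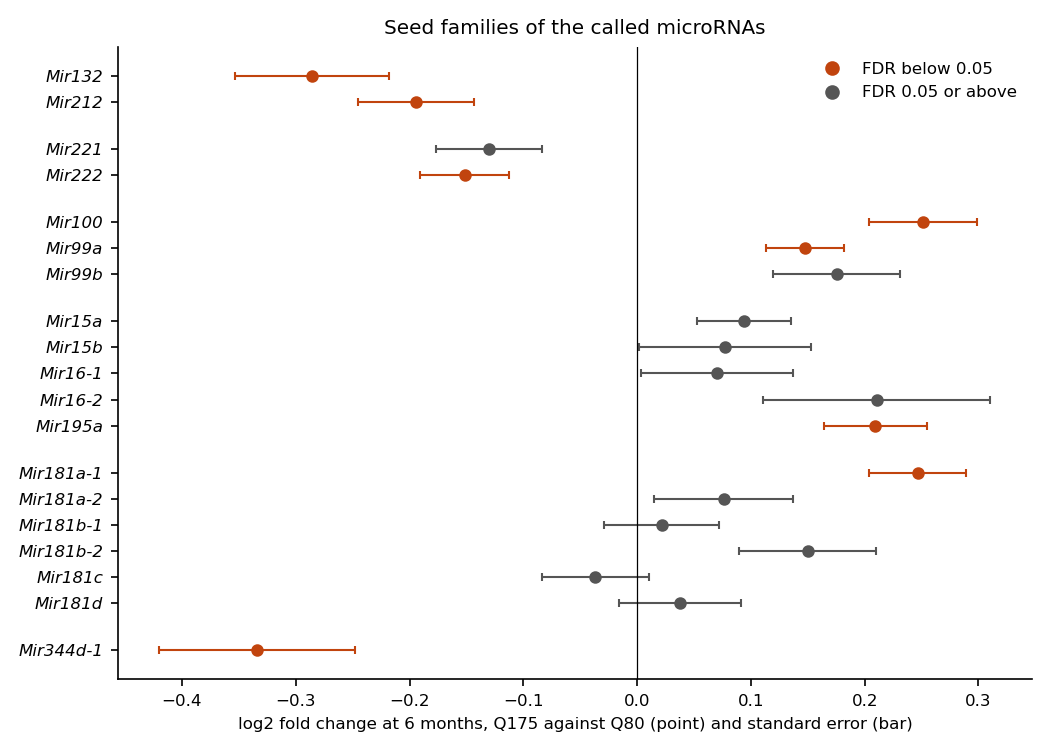
Log2 fold change of Q175 against Q80 at 6 months with its standard error for microRNAs that share a seed with a called one, with a mean of at least 10 counts per library, grouped by seed and coloured by the FDR threshold. Within the Mir132, Mir222, Mir100 and Mir195a groups all members lie on 1 side of 0, and in the Mir181 group Mir181c, at -0.04, is on the other side.

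Among microRNAs that missed the threshold, those with the next smallest p were Mir511, Mir344b, Mir99b and Mir210. Mir511, from an intron of the macrophage gene Mrc1, was near the limit of detection, at 0.232 to 1.11 CPM in Q175 mice and 0.683 to 2.20 in Q80 mice, with a log2 fold change of -1.05 ± 0.30 (SE, adjusted p = 0.0797, edgeR). The hypoxia-responsive Mir210 ran from 73.2 through 77.8 to 92.6 CPM in Q175 mice and from 61.0 through 70.5 to 75.1 in Q80 mice, at 0.19 ± 0.06 (SE, adjusted p = 0.141, edgeR). The neuronal Mir128-2 was at -0.12 ± 0.04 with 7 Q175 mice below the lowest Q80 mouse (adjusted p = 0.141, edgeR), and Mir128-1 was at -0.12 ± 0.05.

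Because lanes and genotypes were aligned, the 9 were followed in part of the libraries and with lane in the fit. In the 11 LB libraries, 5 Q175 against 6 Q80 and without lane in the fit, Mir187, Mir132, Mir181a-1 and Mir100 passed the test. Lane and genotype stayed aligned there, with 4 Q175 and 1 Q80 libraries on lane 1 and 1 and 5 on lane 2. With lane 1, lane 2 and V as 3 levels of a covariate over all 16 libraries, only Mir187 passed, at -0.48 (adjusted p = 0.00267, edgeR). The adjusted p was 0.0675 for Mir181a-1, Mir100 and Mir195a and 0.0855 for Mir99a in that fit. It was 0.217 for Mir222, 0.450 for Mir344d-1 and 0.475 for Mir132 and Mir212. The log2 fold change of Mir132 moved from -0.29 to -0.20 and that of Mir212 from -0.19 to -0.14, and no sign turned. With the 11 LB libraries and lane together none passed (18 with an unadjusted p under 0.05), and with the 5 V libraries alone only Mir19b-1 did, a hairpin with a mean of 11.6 counts per library in which both groups held libraries at 0.

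Only 1 LB library of each genotype was on the lane that held most of the other genotype. Q80 female F4, on lane 1, was nearer to the Q80 mice of lane 2 than to the Q175 mice of lane 1 for all 9 microRNAs, for instance with 152 CPM of Mir187 against 98.7 on average in the lane 1 Q175 mice. Q175 male M4, on lane 2, was nearer to its own genotype for 8 of 9, with 5949 CPM of Mir132 against 7529 on average in the lane 2 Q80 mice. For Mir181a-1 it was nearer to its lane, at 4845 CPM against 4602 in the lane 2 Q80 mice and 5660.1 in the lane 1 Q175 mice. Both libraries were among those that chose the 9, so these places are a description. Their LB numbers, 20 for Q80 F4 and 28 for Q175 M4, lay with those of their own genotype. Among the 11 LB libraries, with genotype and sex in the fit, lane gave 0 calls in edgeR (7 of 324 microRNAs with an unadjusted p under 0.05). With 1 crossing library per genotype that fit could separate lane from genotype only weakly, so no conclusion on lane is drawn from it. The V against LB code over the 16 gave 0 calls in edgeR (27 of 325 with an unadjusted p under 0.05).

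The interaction of genotype and sex gave 0 calls in edgeR and in DESeq2, with 11 microRNAs at an unadjusted p under 0.05 in edgeR. Among the 9, the log2 fold change of Mir187 was -0.50 ± 0.11 in females and -0.35 ± 0.09 in males, and that of Mir212 -0.12 ± 0.06 and -0.27 ± 0.08. All 9 kept their sign in both sexes.

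The same contrast could be read in other mice of the series at 10 and at 2 months. At 10 months lanes were shared nearly evenly (3 Q175 and 3 Q80 libraries on lane 6, 4 and 5 on lane 7), and 34 of 324 microRNAs passed (10.5%), 20 lower (6.17%) and 14 higher (4.32%) in Q175. The groups did not overlap for 7 of the 324 at that age (2.16%), 5 with Q175 below (1.54%) and 2 with Q175 above (0.617%), and Mir132 and Mir222 were among the 5. Of the 9 called at 6 months, 6 were also called at 10 months in the same direction, which is 66.7% of the 6-month calls and 17.6% of the 10-month calls. They were Mir132, Mir212, Mir222, Mir344d-1, Mir181a-1 and Mir195a.

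Mir132 was at -0.42 ± 0.05 at 10 months (adjusted p = 5.08e-05, edgeR) and Mir212 at -0.34 ± 0.05, both further from 0 than at 6 months. Mir222 was at -0.32 ± 0.05 and Mir195a at 0.32 ± 0.09, while Mir344d-1 at -0.29 ± 0.07 and Mir181a-1 at 0.19 ± 0.05 were close to their 6-month values. The 3 others did not pass. Mir187 was at -0.32 ± 0.13 (adjusted p = 0.108, edgeR), Mir99a at 0.10 ± 0.05 and Mir100 at 0.03 ± 0.08. For Mir187 the groups overlapped at 10 months, with Q80 female F2 at 24.8 CPM and the lowest Q175 mouse at 26.8.

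The 5 smallest p among lower microRNAs at 10 months belonged to Mir135b, Mir132, Mir221, Mir222 and Mir212. Mir135b was at -0.53 ± 0.07 against -0.23 ± 0.08 at 6 months, and Mir221 at -0.35 ± 0.05 against -0.13 ± 0.05. Among higher microRNAs they belonged to Mir615, Mir667, Mir467d, Mir15a and Mir541. Mir615, which lies in a Hox cluster, had the largest log2 fold change of these, 2.05 ± 0.28 against 0.95 ± 0.36 at 6 months, from levels of 3.85 ± 1.32 CPM (SD) in Q175 and 0.90 ± 0.43 in Q80. Mir15a was at 0.23 ± 0.05 and Mir667 at 0.24 ± 0.05, against 0.09 ± 0.04 and 0.11 ± 0.04 at 6 months. Mir541 was at 0.18 ± 0.04 against -0.01 ± 0.10.

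A test of the difference between the ages, over the 32 libraries of both, gave 0 calls in edgeR and in DESeq2, with 23 of 326 microRNAs at an unadjusted p under 0.05 in edgeR. For Mir221 the contrast was 0.24 lower at 10 months (log2 -0.24 ± 0.07, adjusted p = 0.228, edgeR), and for Mir100 it was -0.25 ± 0.11 (adjusted p = 0.543, edgeR). A larger or smaller effect at 10 than at 6 months was therefore not shown for any single microRNA. At 2 months 0 of 325 passed in edgeR and in DESeq2, with 20 at an unadjusted p under 0.05 in edgeR. Mir132, at -0.21 ± 0.07, and Mir99a, at 0.16 ± 0.05, were among those 20, and the other 7 were between -0.16 for Mir187 and 0.13 for Mir100.

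**Figure D4:**
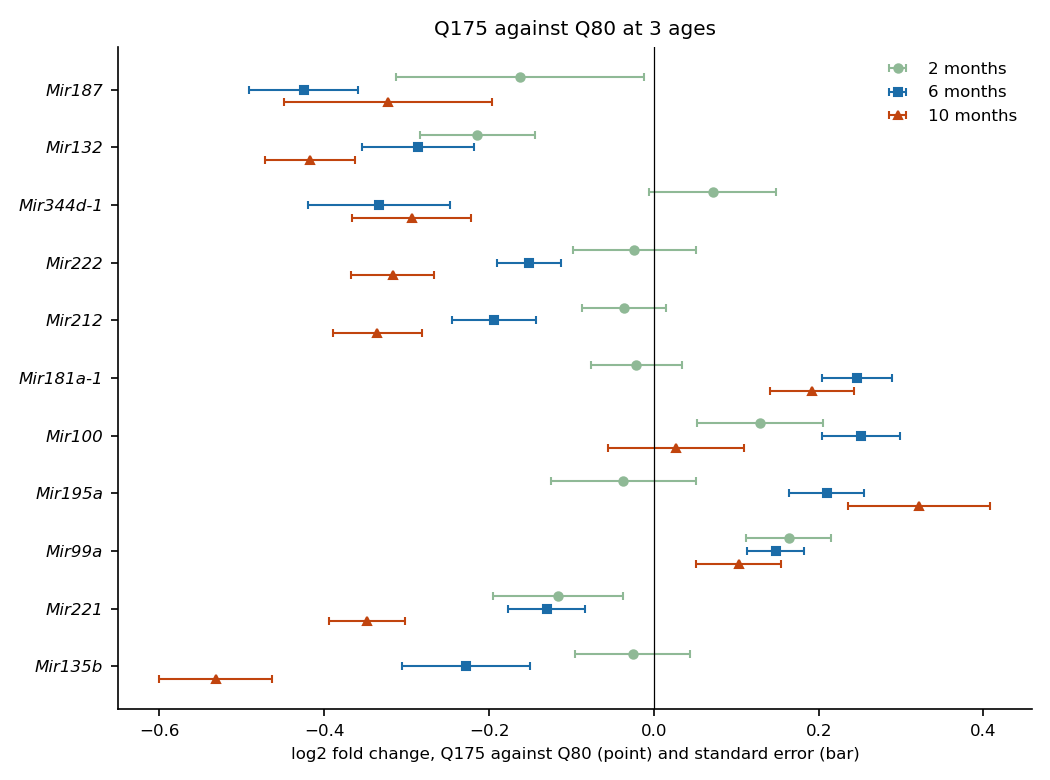
Log2 fold change of Q175 against Q80 with its standard error at 2, 6 and 10 months, 8 mice per group and age, for the 9 microRNAs called at 6 months and for Mir221 and Mir135b. Mir132 lies at -0.21, -0.29 and -0.42 in order of age, and Mir100 at 0.13, 0.25 and 0.03.

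Groups of microRNAs with known roles were counted next. Over all 325 tested at 6 months 9 passed (2.77%), 167 were positive and 158 negative. Among 14 tested neuronal microRNAs none passed, 10 were negative and 4 positive, and the median was -0.04. Mir9-2, Mir128-1 and Mir138-2 were at 0.06 ± 0.05, -0.12 ± 0.05 and -0.04 ± 0.04. Their summed level was 78215 to 87791 CPM in Q175 and 81375 to 90427 in Q80 mice, so these markers of the labelled tissue were abundant in every library. Of 7 activity-regulated microRNAs only Mir132 and Mir212 passed. Mir134 was at 0.08 ± 0.05, Mir184 at 0.17 ± 0.10 and Mir135b at -0.23 ± 0.08 without passing.

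In the Mir17-92 cluster and its paralogs 0 of 13 passed in edgeR at 6 months and 2 had an unadjusted p under 0.05, Mir19b-2 at 0.25 ± 0.09 and Mir17 at 0.17 ± 0.08. At 10 months 3 members passed, all higher (Mir17, Mir20a and Mir19b-2), against 14 called higher among all 324 (4.32%). None of 8 let-7 and Mir98 hairpins, 5 of the Mir30 family or 2 of the Mir29 family passed at 6 months, and their medians were 0.03, 0.0020 and -0.13. In the Mir148 and Mir152 family Mir148a was at -0.15 ± 0.05 at 6 months and was called lower at 10 months, at -0.36 ± 0.08. Mir152 went the other way, at 0.06 ± 0.08 at 6 months and called higher at 10 months, at 0.23 ± 0.06. Mir148b was at 0.04 ± 0.05 and 0.02 ± 0.06 at those ages and passed at neither.

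The study names 19 of the tested microRNAs for the cortex. Of these Mir187, Mir132 and Mir212 were called lower and Mir99a higher, against 9 calls among all 325. That list was chosen with these mice among the samples and is not independent evidence. A further 6 of the 19 had an unadjusted p under 0.05, including Mir484 at -0.14 ± 0.05, Mir615 at 0.95 ± 0.36 and Mir10b at -0.19 ± 0.08. With the called ones 10 of the 19 had such a p in edgeR, against 49 of all 325. Mir615 held a mean of 5.56 counts per library, and its log2 fold change was 0.62 without Q175 female F4 and 0.23 in DESeq2 with outlying counts replaced and fold changes shrunk by a prior.

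Markers of other cells that cortex samples can hold gave no call at 6 months. The 4 tested vascular microRNAs summed to 30138 to 36250.2 CPM in Q175 and 33154 to 43377 in Q80 mice, with Mir143 at -0.18 ± 0.07 and Mir126a at 0.01 ± 0.05. The 2 oligodendrocyte microRNAs summed to 500.5 to 601 CPM in Q175 and 497 to 599 in Q80 mice. The 5 immune microRNAs summed to 2875 to 4412 and 2923 to 4890 CPM, with Mir511 the one member at an unadjusted p under 0.05. The 15 choroid plexus and ciliated-cell microRNAs ran from 3462 to 8917 and 3185 to 8127 CPM, with 8 positive, 7 negative and a median of 0.12. Mir204, the member with the most counts (a mean of 14124.6 per library), was at -0.21 ± 0.16. Mir1298, Mir1912, Mir448 and Mir1264 were at -0.43 ± 0.29, -0.65 ± 0.33, -0.27 ± 0.24 and -0.12 ± 0.09, and Mir211 was at 0.12 ± 0.35. The ciliated-cell Mir34b and Mir34c were at -0.40 ± 0.13 and -0.30 ± 0.13, and Mir449a and Mir449c, of the same cells, at 0.23 ± 0.14 and 0.31 ± 0.33. The Mir200 members of that list, all among its 8 positive ones, were between 1.09 ± 0.96 for Mir429 and 1.29 ± 1.13 for Mir200a. At 10 months these members were between -1.71 for Mir141 and -0.29 for Mir200b, and none passed. Of 12 tested microRNAs of liver, muscle and neuroendocrine cells 10 were negative and 2 positive, with a median of -0.11. Mir192, Mir194-1 and Mir194-2 were at -0.04 ± 0.05, -0.17 ± 0.13 and -0.22 ± 0.11, and Mir375 and Mir7-1 at -0.02 ± 0.13 and -0.04 ± 0.07. The liver microRNA Mir122 stayed between 0.743 and 4.67 CPM in Q175 and 0.22 and 1.74 in Q80 mice, at 0.94 ± 0.31 (unadjusted p = 0.0065, adjusted p = 0.141, edgeR) from a mean of 8.94 counts per library. The muscle microRNAs Mir206 and Mir133b held means of 1.94 and 0.625 counts per library.

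The place of both alleles among the 6 heterozygous knock-ins of 6 months was read from the group means, 8 mice each, as a description. The 9 were chosen for a difference between Q175 and Q80 in these same libraries. For all 9 the Q175 mean was the most extreme of the 6, while the Q80 mean was at the other end for Mir100, Mir195a and Mir99a. For Mir195a, Mir99a, Mir100, Mir181a-1 and Mir212 the next mean lay within the Q175 SD. Mir195a was at 461.3 ± 24.2 CPM against 457.7 ± 11.4 in Q92, and Mir99a at 1089 ± 48.5 against 1044 ± 87.7 in Q140. Mir100 was at 2365 ± 201 against 2183 ± 240 in Q20, and Mir181a-1 at 5401 ± 406 against 5001 ± 418 in Q111. Mir187 had means of 129 ± 29.8 CPM (SD) in Q20 mice and 129 ± 13.4 in Q80 mice, and of 118 ± 33.1 (Q92), 106 ± 10.5 (Q111) and 116 ± 16.9 (Q140) at longer repeats, while Q175 mice had 95.3 ± 6.42. Single mice of other alleles were lower in Mir187 than any Q175 mouse. With all 6 alleles scaled together, the lowest were at 57.1 CPM in Q20 and 38.6 in Q92, against 85.4 in Q175. Mir132 was between 6559 and 7092 CPM on average in the 5 alleles up to Q140 and at 5624 ± 466 in Q175. For Mir212 the means were 1354 ± 82.7 in Q20, 1366 ± 63.1 in Q80, 1245 ± 113 in Q140 and 1185 ± 103 in Q175. The Q140 mean lay between those of Q80 and Q175 for 7 of the 9. For Mir344d-1 (315 CPM against 307 in Q80 and 242 in Q175) and Mir222 (2315 against 2292 and 2055) it lay beyond Q80, away from Q175. Of the libraries of the other 4 alleles only 1, of Q140, was on lane 1 and none was on lane 2, so these means carry lane differences. The cause of the differences between alleles was not tested.

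**Figure D5:**
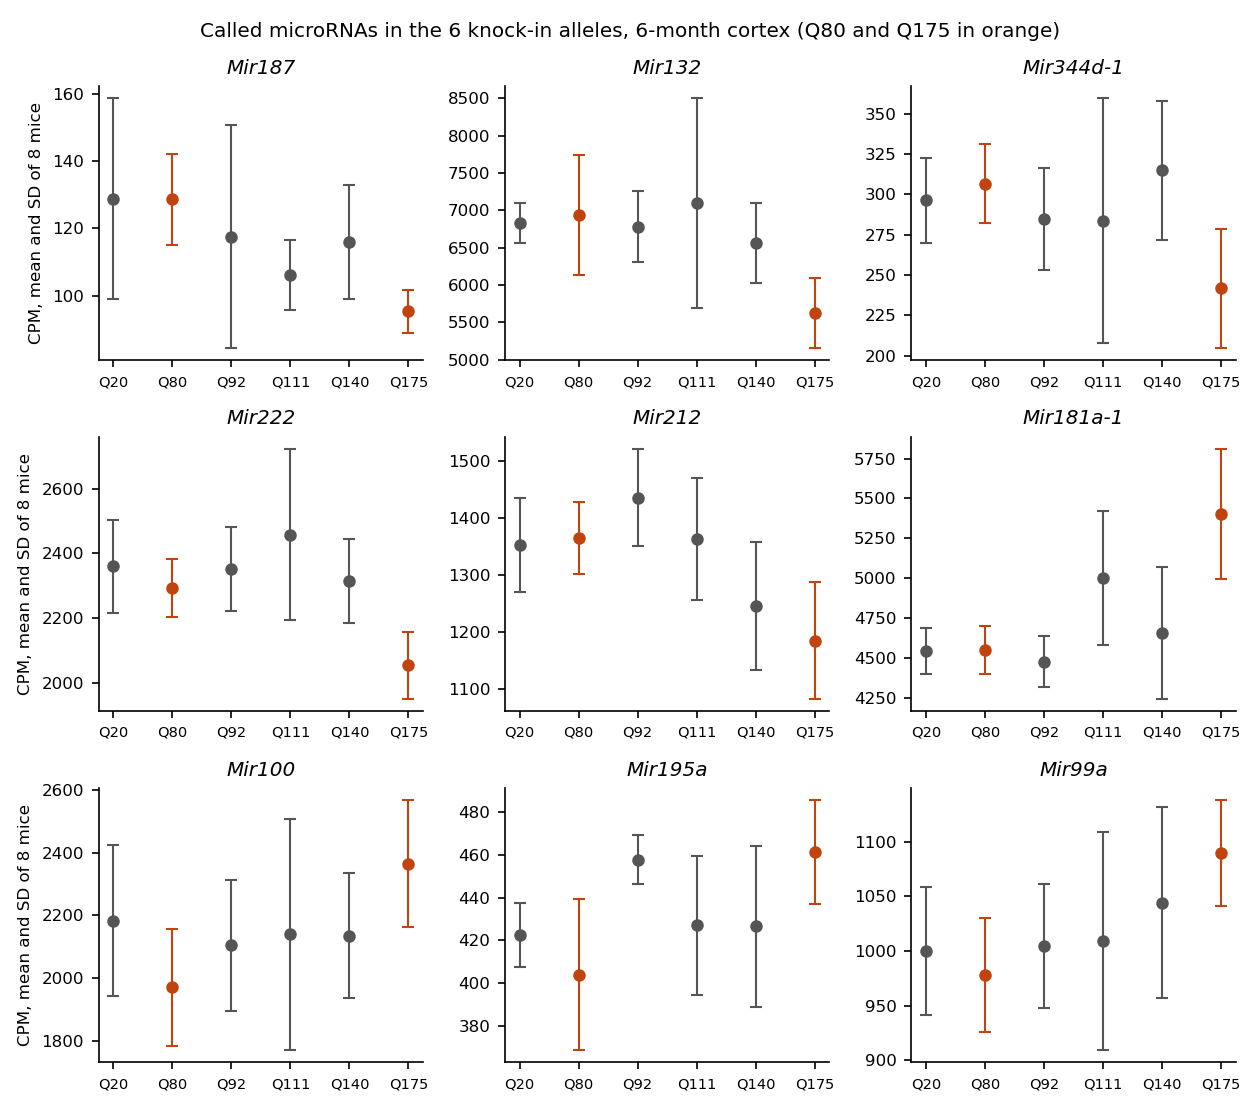
Mean and SD over 8 mice of TMM-normalized CPM at 6 months for the 9 called microRNAs in the 6 heterozygous knock-in alleles, with the nominal CAG length on the x axis and Q80 and Q175 in orange (y axes do not start at 0). The Q175 mean is the most extreme of the 6 for all 9, for instance 95.3 CPM of Mir187 and 5624 CPM of Mir132. For Mir195a, Mir99a, Mir100, Mir181a-1 and Mir212 the next mean lies within the Q175 SD.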

How the data were processed

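The authors deposited a table of estimated counts (expected counts) per transcript, in which 47.0% of values in the 16 libraries were not whole numbers, as arises when reads that fit several loci are divided. Base calling used CASAVA 1.8.2 per the labels. By the study's methods, strand-specific single-end reads were clipped and mapped with STAR to mm10, and HTSeq is named for counting. How reads were divided between transcripts is not given in the sources used here. Counts were rounded. Library sizes used all 1626 transcripts, scaled by TMM. Of the 480 microRNAs on the study's list 329 were matched by symbol to GENCODE vM21 (GRCm38), and those with at least 1 count were tested. Genotype was fitted with sex, and at 6 months the V or LB library code, by edgeR 4.0.16 (R 4.3.3), with a robust quasi-likelihood test and Benjamini-Hochberg FDR 0.05. DESeq2 1.42.0 was an alternative. The fit was tested on simulated data. The p-values measure the spread between mice. No pair of libraries within a group was a duplicate, since the lowest chi-square per degree of freedom was 19.31 over 56 pairs. Depth is given in the report and limits microRNAs with few counts.

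Named microRNAs were those past the threshold at 6 months (where fewer than 6 passed in a direction, the 6 with the smallest p), those of a comparison with at most 5 calls, the 4 most abundant and the called members of each list, the microRNAs the study names for the cortex, and the 5 with the smallest p in each direction at 10 months, as far as the text uses them. Seed partners, hairpin neighbours, the first-component microRNAs and other list members were named after their values were seen. Members and lists were chosen with earlier results of these data known. Columns of all other groups were used for the alleles and ages only.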

Additional observations from a re-analysis of the deposited data

Results flagged for a closer look

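Among 26 sets of 8 values, each a quantity in a group of mice, examined for a single mouse far from the other 7, 3 held one. Chance alone gives about 1 in 20 for a single set. The sets share mice and are not independent, so the 3 are not weighed against that rate. Q175 male M3 had 11646287 total counts, and its gap to the next library was 0.869 of the group's range. The same mouse held 92.64 CPM of Mir210, with a gap of 0.564 of the range. Q80 female F3 held 5166 CPM of Mir99b, with a gap of 0.528 of the range.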

How the results depend on the processing

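Against 9 calls at 6 months, library size alone gave 3 (44 with an unadjusted p under 0.05), all transcripts as features 3, all annotated microRNAs 4, lane with V as covariate 1, the LB libraries alone 4, the V libraries alone 1, the LB libraries with lane 0 and all 6 heterozygous genotypes 5. Leaving out 1 library gave 2 calls (without Q175 F3) to 13 (without Q175 M3), with 3 without Q175 M1, 4 without Q175 M4 or Q80 F3, and 5 without Q175 F4 or any other Q80 library. Chosen after seeing the data, a fit without Q175 M3 and with lane gave 1, and one with the level of the 8 first-component microRNAs gave 10, with all 9 among them. DESeq2 gave 11. None of the 9 changed sign in any of these fits. Mir187 and Mir181a-1 passed without each of the 16 libraries in turn, Mir100 in 15 of those fits, Mir195a in 12, Mir132 in 10, Mir99a in 4, Mir212 and Mir344d-1 in 3 and Mir222 in 1. With replicate number as a block, 7 passed, and Mir99a (0.15, adjusted p = 0.0504) and Mir222 (-0.15, adjusted p = 0.0777, both edgeR) did not. No pairing of the mice by number was seen, since pair correlations ran from -0.81 to 0.90 and 2 of 8 mice correlated best with their own number. The correlations cover the 260 microRNAs whose first component held 76.8% of the variance, so a pairing outside that component could go unseen. At 10 months DESeq2 gave 52 calls against 34 and all transcripts 21, the block 35, and leaving out 1 library 24 to 38. At 2 months leaving out 1 library gave 0 to 1, the 1 without Q175 F4. Of the microRNAs named, only Mir206, Mir301b, Mir208b and Mir92b at 6 months and Mir100 at 10 months turned sign. Mir206 was -0.09177 in the V libraries, and Mir301b 0.1085 and Mir208b 0.08435 in the LB libraries with lane. Mir92b was 0.01772 in the LB libraries and 0.01652 with lane. Leaving out 1 library gave -0.06427 to 0.03082 for Mir92b, -0.2951 to 0.01427 for Mir208b (the highest without Q80 F2) and -0.04813 to 0.08579 for Mir100 at 10 months, negative without Q175 M3, Q175 M4 or Q80 M4. The cause of these changes was not tested.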
